A study of Mus musculus with 4 samples.

Results

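Cholesterol and fatty acid metabolism was followed through 52 genes in Treg cells of the large intestine (LI), out of 53379 genes in the expression table. The 52 genes were taken by name, from a list made with earlier results of these data known. They cover the synthesis of mevalonate and sterols, its control by SREBP and LXR, and the synthesis, activation, storage and oxidation of fatty acids. RNA was sequenced from 2 control and 2 KO libraries of CD3+CD4+YFP+ cells, sorted from mice at steady state. Both groups were on the C57BL/6 background and carried Foxp3-YFPcre, which drives Cre and YFP from the *Foxp3* locus so that deletion depends on expression of *Foxp3*. Control mice were Setd2 flox/+ and had 1 floxed and 1 intact copy of *Setd2*, the gene of a histone methyltransferase that trimethylates lysine 36 of histone H3, whereas KO mice were Setd2 flox/flox. Mice were used at 6 to 12 weeks of age and each library was a pool of 2 to 3 littermates, so the spread within a group is a spread between pools.

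Cells make cholesterol from acetyl-CoA through mevalonate, isoprenoids and squalene. The enzymes of this path are switched on together by SREBP transcription factors, which SCAP escorts out of the endoplasmic reticulum when sterols are scarce and INSIG proteins hold back when sterols are plentiful. LXR receptors sense oxidised sterols and turn on export through ABC transporters. Fatty acids are built from citrate-derived acetyl-CoA, elongated and desaturated, joined to coenzyme A, and then stored as triglyceride in lipid droplets or burned in mitochondria, and Treg cells are known for their use of fatty acid oxidation and of the mevalonate path.

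Levels are given as FPKM, a fragment count scaled to transcript length and library size, so that they can be compared between genes. The 4 columns had nearly the same distribution, with sums of FPKM from 774923 to 774999, and the depth of each library is unknown. The 4 libraries held the T and Treg markers *Cd3e*, *Cd4*, *Il2ra*, *Ikzf2* and *Ctla4* at 84.1 FPKM or more, whereas *Foxp3* itself lay between 2.62 and 5.61. Without overlap of the groups, *Ctla4* was higher in KO (1593 and 1701 FPKM in control, 2160.0 and 2310.4 in KO), and *Ikzf2* (121 and 116 against 84.1 and 98.4) and *Il2ra* (184 and 180.4 against 152 and 163) were lower, with adjusted p of 0.132, 0.222 and 0.392. *Setd2* was at 38.2 and 27.4 FPKM in control and at 26.3 and 36.3 FPKM in KO, and since the value covers the whole gene, it does not check the deletion. Of 6 epithelial markers, *Epcam* was at 28.7 and 30.8 FPKM in control and 19.6 and 21.1 FPKM in KO, lower in KO without overlap (adjusted p = 0.147), and the other 5 were at 0.49 or less in every library. Of 5 stromal markers, *Pecam1* was at 34.7 and 36.3 FPKM in control and 49.3 and 42.7 FPKM in KO, higher in KO without overlap (adjusted p = 0.252), and the other 4 were at 4.47 or less. The part of these marker differences in the results was not tested. Of 7 myeloid markers, *Lyz2* was the highest at 128 to 168 FPKM, and the summed level of the list was 213 and 186 in control and 192 and 235 in KO. Plasma cell *Jchain* lay between 112 and 169 FPKM. In these bulk samples fewer cells of a type and less RNA per cell cannot be told apart.

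The 52 genes were expressed over a wide range of levels. Of them, 42 were protein-coding genes with a mean FPKM above 5 in at least 1 group and were tested, and the other 10 (*Hsd17b7*, *Abca1*, *Nr1h3*, *Acaca*, *Scd1*, *Scd2*, *Fads1*, *Fads2*, *Acsl3* and *Cpt2*) were below that filter. The lowest value was 0.07 FPKM, for *Fads2* in KO 1, and the highest was 1483 FPKM, for *Dgat1* in control 2. Differences between KO and control were estimated with limma on log2(FPKM + 1), a scale that understates the change of genes with low values. Adjusted p is the Benjamini-Hochberg value over all 7639 genes tested.

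**Figure D1:**
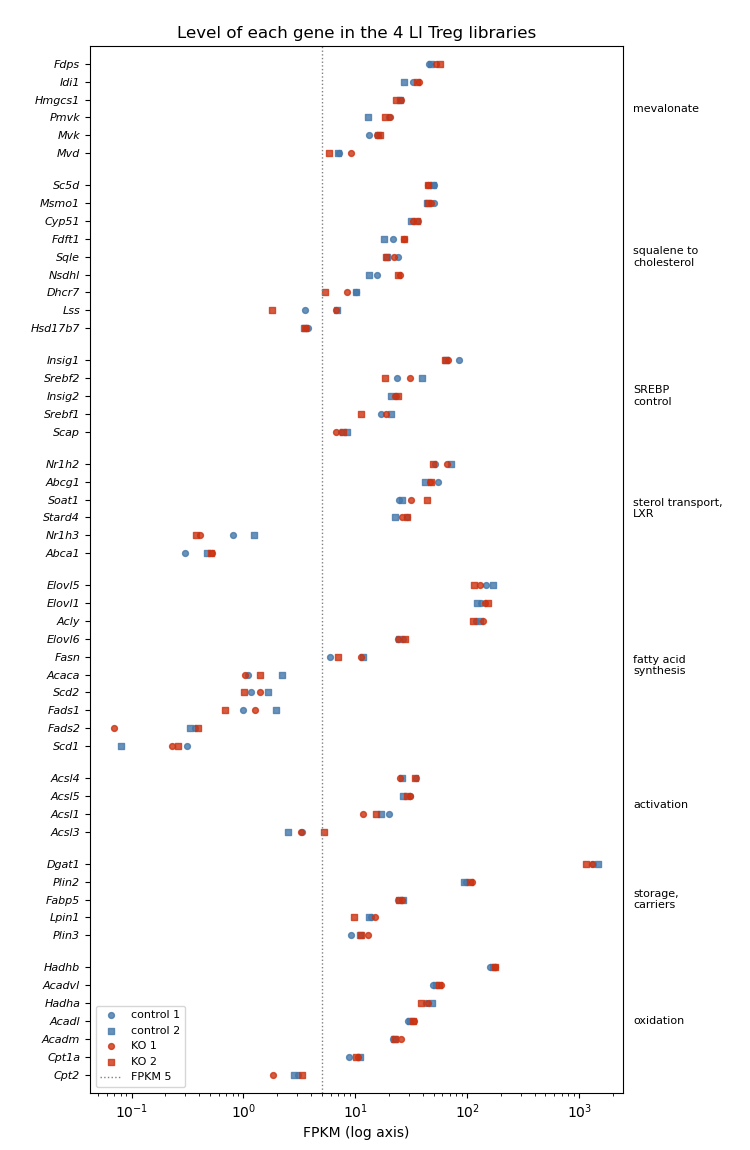
FPKM of the 52 genes (log x axis) in control 1 and 2 (blue) and KO 1 and 2 (red), by role. *Dgat1* stands alone at 1159 FPKM or more, and the desaturases *Scd1*, *Scd2*, *Fads1* and *Fads2* lie below the dotted line at 5 FPKM, the level used in the filter.

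No gene of the 52 passed an adjusted p of 0.05, the smallest adjusted p being 0.0926 for *Nsdhl* (limma), against 45 of 7639 genes tested (0.589%). At the unadjusted p of 0.05 that the study used, 3 genes were higher in KO (*Nsdhl*, *Fdft1* and *Soat1*) and 1 was lower (*Elovl5*), or 4 of 42 (9.52%). Over all genes tested that share was 16.2%, with 8.61% higher and 7.57% lower in KO. The values of the groups did not overlap for 17 of the 42 genes (40.5%), 12 higher and 5 lower in KO, compared with 47.1% of all genes tested. The median log2 fold change of the 42 genes was 0.02, and that of all genes tested was -0.0039. For 38 of the 42 genes (90.5%) the 95% interval lay within 1 log2 unit of 0, so that a change of 1 log2 unit was outside it, which was so for 90.5% of all genes tested. The other 4 were *Nsdhl*, *Dhcr7*, *Lss* and *Srebf2*.

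**Figure D2:**
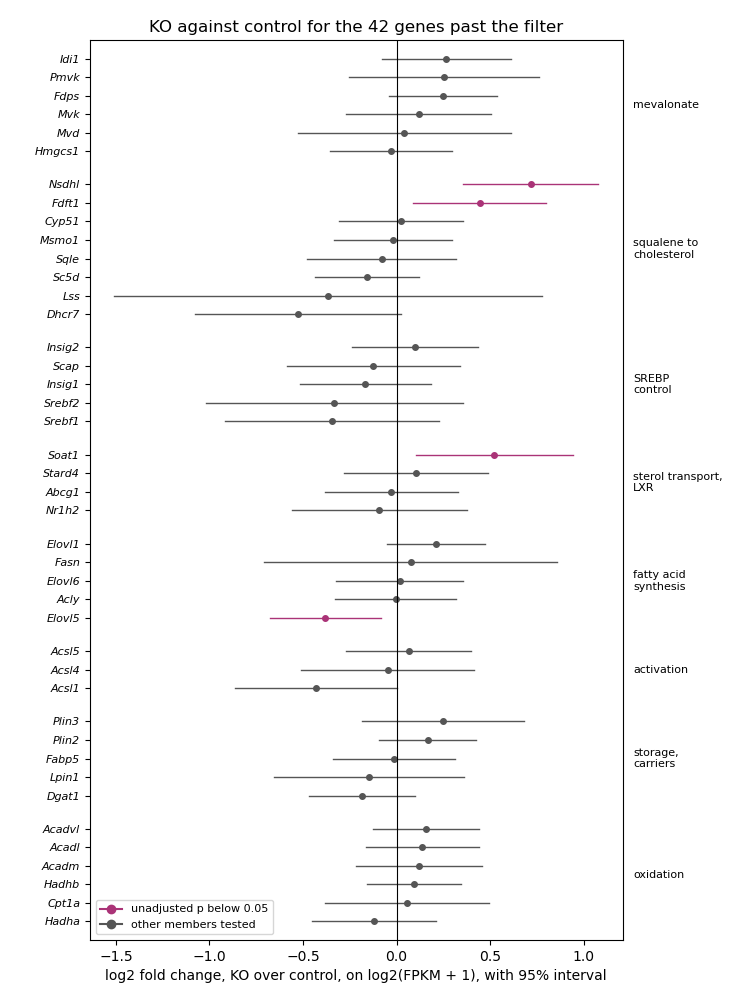
Log2 fold change of log2(FPKM + 1), with positive values for genes higher in KO, of the 42 genes tested, with 95% intervals from limma, by role. The intervals of *Nsdhl*, *Fdft1*, *Soat1* and *Elovl5* leave out 0, and that of *Lss* is the widest, from -1.51 to 0.78.

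All 6 genes of the mevalonate branch were expressed above the filter, and none was called. *Fdps*, which makes farnesyl pyrophosphate, was the highest of them with 45.1 and 47.4 FPKM in control and 53.1 and 57.3 FPKM in KO. The KO libraries were both above the control libraries, with a log2 fold change of 0.25 ± 0.12 (SE) and an adjusted p of 0.371. *Idi1*, the isomerase of the isoprenoid unit, was at 33.0 and 27.0 FPKM in control and 36.9 and 35.3 FPKM in KO, again without overlap (0.26 ± 0.15, SE; adjusted p = 0.425). *Hmgcs1*, which makes the HMG-CoA that enters the path, was close to level at 25.0 and 24.9 FPKM in control and 25.6 and 23.2 FPKM in KO, with a 95% interval of the log2 fold change from -0.36 to 0.29. The kinases *Mvk* and *Pmvk* and the decarboxylase *Mvd* lay between 5.77 and 20.5 FPKM and overlapped between groups. The *Mvd* gene shares positions with *Gm20388* (39.5 to 56.8 FPKM) on the opposite strand. The branch had a median log2 fold change of 0.18, and 5 of its 6 genes had a positive one, compared with 3772 of the 7639 genes tested. When single libraries were left out, *Mvk* (-0.0070 to 0.24), *Pmvk* (-0.048 to 0.55) and *Mvd* (-0.25 to 0.33) had values of both signs. So did *Hmgcs1* (-0.098 to 0.037), while *Idi1* and *Fdps* stayed positive.

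From squalene to cholesterol, 8 of 9 enzymes were tested and 2 were called higher in KO at the unadjusted p. *Nsdhl*, a dehydrogenase in the removal of methyl groups from the sterol ring, was at 15.7 and 13.4 FPKM in control and at 25.0 and 23.9 FPKM in KO. Its lowest KO value was above its highest control value, and its mean was 1.68-fold higher in KO (14.5 ± 1.64 against 24.5 ± 0.764 FPKM, SD, n = 2). The log2 fold change was 0.72 ± 0.15 (SE; limma adjusted p = 0.0926), the largest size of change among the 42 genes. Without each library in turn it lay between 0.61 and 0.82, and the unadjusted p stayed below 0.05 each time. *Nsdhl* (X:72918557-72958514, + strand, GRCm38) lies on the X chromosome. The pools held RNA of both sexes, with *Xist*, the RNA of the inactive X, at 7.22 and 7.02 FPKM in control and 5.08 and 6.41 FPKM in KO. Y-linked *Ddx3y* (77.3 and 58.1 FPKM in control, 88.0 and 102 FPKM in KO) and *Kdm5d* (4.32 and 1.80 against 5.31 and 7.24 FPKM) were higher in KO without overlap. Y-linked *Uty* (34.6 and 27.3 against 28.2 and 34.1 FPKM) and *Eif2s3y* (52.05 and 30.27 against 37.39 and 49.68 FPKM) overlapped between groups. The part of these genes in the *Nsdhl* result was not tested.

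*Fdft1*, squalene synthase, which makes the first committed intermediate of sterols, was at 21.6 and 17.9 FPKM in control and at 27.1 and 27.0 FPKM in KO. The lower KO value was above the higher control value, and the mean was 1.37-fold higher in KO (19.7 ± 2.60 against 27.1 ± 0.0778 FPKM, SD, n = 2). The log2 fold change was 0.44 ± 0.15 (SE; limma adjusted p = 0.226). The unadjusted p no longer passed when control 2 (log2 fold change 0.32), KO 1 (0.44) or KO 2 (0.45) was left out. *Fdft1* (14:63145150-63179578, - strand) overlaps *Ctsb*, a lysosomal protease gene on the opposite strand that was at 452 to 553 FPKM, and with the strand of the libraries not given in the sources used here, reads of the overlap could belong to either gene.

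The other 6 enzymes tested in this branch did not share this pattern. *Sc5d*, a late desaturase of the sterol ring, was at 50.1 and 49.9 FPKM in control and at 44.4 and 45.0 FPKM in KO, lower in KO without overlap (-0.16 ± 0.12, SE; adjusted p = 0.563). *Msmo1*, the oxygenase that acts in the same demethylation as *Nsdhl*, was at 50.7 and 43.5 FPKM in control and 47.8 and 44.9 FPKM in KO, and its interval from -0.33 to 0.29 held 0. *Cyp51*, the lanosterol demethylase, and *Sqle*, squalene epoxidase, also overlapped between groups, with log2 fold changes of 0.02 and -0.08. The *Cyp51* gene shares positions with *Akap9* (46.3 to 61.4 FPKM) on the opposite strand. *Dhcr7*, which performs the last reduction to cholesterol, had an unadjusted p just above 0.05 with 10.0 and 10.1 FPKM in control and 8.38 and 5.32 FPKM in KO (-0.53 ± 0.23, SE; limma adjusted p = 0.327). *Lss*, which closes squalene epoxide into lanosterol, varied most between pools, at 3.52 and 6.86 FPKM in control and 6.65 and 1.80 FPKM in KO. *Hsd17b7* lay between 3.47 and 3.75 FPKM and was not tested. The median log2 fold change of the branch was -0.05.

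**Figure D3:**
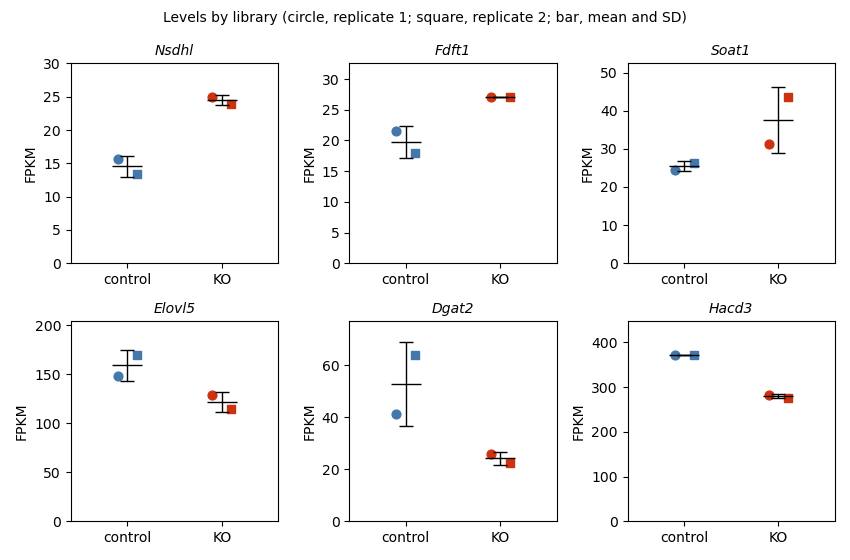
FPKM (y axis from 0) of *Nsdhl*, *Fdft1*, *Soat1* and *Elovl5*, the 4 genes with an unadjusted p below 0.05, and of *Dgat2* and *Hacd3*, which are outside the 52, by library, with the mean and SD of each group (n = 2). The control and KO values do not overlap in any of the 6 panels, and no gene shown reached an adjusted p of 0.05.

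None of the 5 SREBP control genes was called, and all 5 overlapped between groups. *Insig1*, which retains SREBP and is itself an SREBP target, was at 83.7 and 64.8 FPKM in control and at 67.5 and 63.6 FPKM in KO (-0.17 ± 0.15, SE; adjusted p = 0.63). Control 1 alone was above the other 3 libraries, and the log2 fold change without it was 0.02. *Srebf2*, whose product drives the sterol enzymes, was at 23.5 and 39.3 FPKM in control and at 30.9 and 18.6 FPKM in KO (-0.33 ± 0.29, SE; adjusted p = 0.625). Its log2 fold change lay on both sides of 0 when single libraries were left out, from -0.69 without control 1 to 0.03 without control 2. *Srebf1*, whose product favours fatty acid synthesis, was at 17.0 and 20.6 FPKM in control and 18.8 and 11.2 FPKM in KO. *Insig2* lay between 20.7 and 24.0 FPKM and *Scap* between 6.71 and 8.44 FPKM. *Scap* lies 0.148 Mb from *Setd2* on chromosome 9, and its log2 fold change was -0.12 with an interval from -0.59 to 0.34.

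Among genes of sterol transport and LXR, *Soat1*, the enzyme that esterifies cholesterol for storage, was the gene called. It was at 24.6 and 26.4 FPKM in control and at 31.4 and 43.7 FPKM in KO, without overlap of the groups and with KO 2 the highest. Its mean was 1.47-fold higher in KO (25.5 ± 1.30 against 37.5 ± 8.71 FPKM, SD, n = 2), with a log2 fold change of 0.52 ± 0.18 (SE; limma adjusted p = 0.225). The unadjusted p no longer passed without KO 2 (log2 fold change 0.29) or without control 1 (0.47). KO 2 also had the highest level of 5 of the 7 myeloid markers, among them *Lyz2* (168 against 128 to 152 FPKM) and *Cd68* (31.0 against 21.4 to 25.1 FPKM). Also among them were *Itgax* and *S100a8*, which did not exceed 0.69 FPKM. *Adgre1*, highest in KO 2 too, was the only tested myeloid marker higher in KO without overlap (log2 fold change 0.47, limma adjusted p = 0.367). *C1qa* and *Csf1r* were instead highest in KO 1 (31.3 and 5.69 FPKM, against 24.2 and 4.86 FPKM in KO 2). The part of these markers in the *Soat1* result was not tested. *Soat1* lies at 1:156424525-156474331 on the - strand.

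The LXR receptors differed in level by far more than the groups did. *Nr1h2*, which encodes LXR beta, was at 51.4 and 72.1 FPKM in control and 65.9 and 49.5 FPKM in KO, whereas *Nr1h3*, which encodes LXR alpha, was at 0.80 and 1.25 FPKM in control and 0.41 and 0.38 FPKM in KO. The exporter *Abcg1* was at 54.5 and 42.1 FPKM in control and 46.7 and 47.2 FPKM in KO, while the exporter *Abca1* did not exceed 0.52 FPKM in any library. *Nr1h2* and *Abcg1* overlapped between groups and their log2 fold changes were -0.09 ± 0.20 and -0.03 ± 0.15 (SE). The sterol carrier *Stard4* lay between 22.6 and 29.1 FPKM.

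In fatty acid synthesis the elongases and the citrate lyase were abundant and the desaturases were nearly silent. *Elovl5*, which elongates polyunsaturated fatty acids, was the only one of the 42 genes tested that was called lower in KO, with 148.1 and 170.1 FPKM in control and 129 and 114 FPKM in KO. The groups did not overlap, and the mean was 1.30-fold higher in control than in KO (159 ± 15.6 against 122 ± 10.5 FPKM, SD, n = 2). The log2 fold change was -0.38 ± 0.13 (SE; limma adjusted p = 0.222). The unadjusted p no longer passed without control 2 (log2 fold change -0.28) or without KO 2 (-0.29). *Elovl5* (9:77917364-77984519, + strand) is on the chromosome of *Setd2*, at 32.5 Mb from it.

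*Elovl1*, the elongase of saturated very long chains, differed in the opposite direction, with 133 and 123 FPKM in control and 144 and 153 FPKM in KO. Its groups did not overlap either, and it did not pass the test (0.21 ± 0.11, SE; adjusted p = 0.403). *Elovl1* overlaps *Cdc20* on the opposite strand, which was at 14.9 and 13.5 FPKM in control and 25.8 and 23.8 FPKM in KO. Reads of that overlap could belong to either gene. *Acly*, which splits citrate into acetyl-CoA, was close in level at 112 to 138 FPKM with a log2 fold change of -0.0038 and an interval from -0.33 to 0.32. *Elovl6* lay between 24.2 and 27.6 FPKM. *Fasn*, the fatty acid synthase itself, was far lower at 5.89 and 11.8 FPKM in control and 11.2 and 7.01 FPKM in KO. *Acaca*, which makes the malonyl-CoA that *Fasn* uses, lay between 1.03 and 2.19 FPKM. The desaturases lay between 0.08 and 0.31 FPKM for *Scd1*, 1.01 and 1.65 for *Scd2*, 0.69 and 1.95 for *Fads1* and 0.07 and 0.39 for *Fads2*.

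The acyl-CoA synthetases, which activate fatty acids, were led by *Acsl4* and *Acsl5*. *Acsl4* was at 34.8 and 26.3 FPKM in control and 25.2 and 33.9 FPKM in KO, and *Acsl5* was at 30.9 and 26.6 FPKM in control and 31.1 and 28.9 FPKM in KO. Both overlapped between groups, with log2 fold changes of -0.05 ± 0.20 and 0.06 ± 0.14 (SE). The *Acsl5* gene shares positions with *Zdhhc6* (15.9 to 23.1 FPKM) on the opposite strand. *Acsl1* also had an unadjusted p just above 0.05, at 19.9 and 16.8 FPKM in control and 11.7 and 15.2 FPKM in KO, lower in KO without overlap (-0.43 ± 0.19, SE; limma adjusted p = 0.313). *Acsl3* lay between 2.48 and 5.23 FPKM and was not tested.

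Lipid storage held the most abundant gene of the 52. *Dgat1*, which adds the last acyl chain of triglyceride, was at 1332 and 1483 FPKM in control and at 1316 and 1159 FPKM in KO, and ranked 65 by mean FPKM among the 7639 genes tested. The KO libraries were below the control libraries by less than the test could call (-0.19 ± 0.12, SE; adjusted p = 0.492). Enterocytes also use *Dgat1*. Of the 6 epithelial markers, *Epcam* was lower in KO, as the *Dgat1* values were, and *Krt8*, *Krt20*, *Vil1*, *Cdh1* and *Fabp2* were at 0.49 FPKM or less in every library. Their part in the *Dgat1* values was not tested. *Plin2*, a lipid droplet coat protein, was at 98.3 and 93.8 FPKM in control and 109.6 and 106 FPKM in KO, higher in KO without overlap (0.17 ± 0.11, SE; adjusted p = 0.502). *Plin3* (9.16 to 13.1 FPKM), the phosphatase *Lpin1* (9.75 to 14.9 FPKM) and the carrier *Fabp5* (24.3 to 26.7 FPKM) were not called.

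In fatty acid oxidation 6 of 7 genes were tested and none was called. It was the branch with the smallest gaps between pools, with a median absolute difference in log2(FPKM + 1) of 0.10 between the control libraries and 0.06 between the KO libraries. *Hadhb*, a subunit of the mitochondrial trifunctional protein, was at 159 and 171 FPKM in control and 176.0 and 175.9 FPKM in KO. *Acadvl*, the dehydrogenase of very long chains, was at 49.1 and 52.5 FPKM in control and 57.9 and 55.6 FPKM in KO. The groups did not overlap for either gene, with log2 fold changes of 0.09 ± 0.11 and 0.16 ± 0.12 (SE) and adjusted p of 0.724 and 0.569. *Acadl* (29.3 to 33.7 FPKM) and *Acadm* (21.9 to 25.4 FPKM) were also higher in KO without overlap, which made 4 of the 6 genes tested, compared with 47.1% of all genes tested that did not overlap in either direction. *Hadha*, the partner subunit of *Hadhb* that lies beside it on chromosome 5, had a negative log2 fold change (-0.12 ± 0.14, SE). *Cpt1a*, which controls entry of acyl chains into mitochondria, lay between 8.82 and 11.0 FPKM, and *Cpt2* lay between 1.84 and 3.36 FPKM. The median log2 fold change of the branch was 0.11.

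By branch, the median log2 fold change was 0.18 for mevalonate, 0.11 for oxidation, 0.04 for sterol transport and LXR, 0.02 for fatty acid synthesis, -0.01 for storage, -0.05 for squalene to cholesterol, -0.05 for activation and -0.17 for SREBP control. No test was made of these medians. Over the 42 genes the median absolute difference in log2(FPKM + 1) was 0.20 between the control libraries and 0.15 between the KO libraries, compared with 0.13 for the absolute log2 fold change. Over all genes tested these were 0.19, 0.16 and 0.18.

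The gaps within a group went with the base composition of the transcripts. *Fasn*, *Srebf2*, *Srebf1* and *Nr1h2*, with 57.9% to 60.6% GC, were all higher in control 2 than in control 1 and higher in KO 1 than in KO 2. So was *Lss*, whose 52.2% GC was near the median of 50.6%. Other genes with 57.0% to 59.6% GC differed in the other direction in 1 group, among them *Pmvk* (-0.60) and *Mvd* (-0.04) in control and *Scap* (-0.18) and *Mvk* (-0.08) in KO. Replicate 1 was subtracted in control and replicate 2 in KO, and with the same order the signs of the groups would be opposite. Across the 42 genes, the Pearson correlation with the GC content of the longest coding transcript was 0.46 for control 2 minus control 1 and 0.45 for KO 1 minus KO 2, and the Spearman rho was 0.44 and 0.42. The 42 points share their libraries and genes are not independent replicates, so no p is given. Over the 7631 genes tested with a known transcript the Spearman rho was 0.33 and 0.36. The correlation of GC content with the log2 fold change between groups was weaker, with a rho of -0.12 for the 42 genes. The part of base composition in the values of *Srebf1*, *Srebf2*, *Lss* and *Fasn* was not tested.

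**Figure D4:**
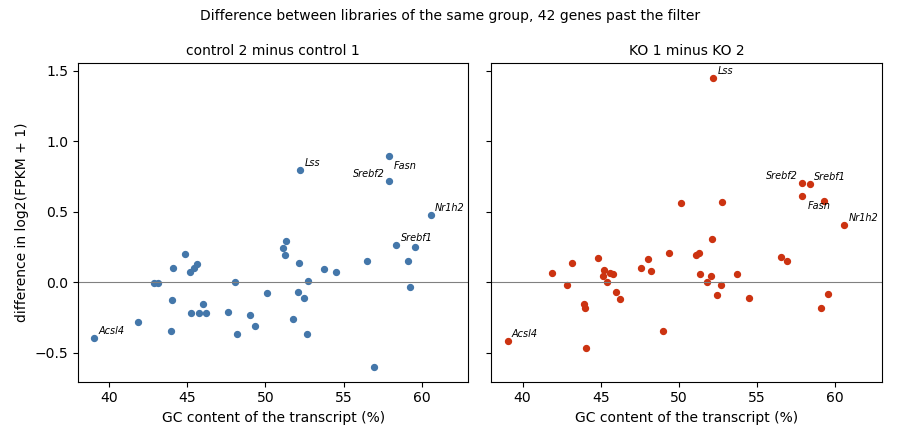
Difference in log2(FPKM + 1) between the libraries of a group (y axis) against transcript GC content in percent (x axis) for the 42 genes tested, control on the left and KO on the right. *Fasn*, *Srebf1*, *Srebf2* and *Nr1h2*, with much G and C, lie above 0 in both panels, and *Acsl4*, with 39.0% GC, lies below 0 in both. *Pmvk*, *Mvd*, *Scap* and *Mvk*, not labelled and also with much G and C, each lie below 0 in 1 panel.

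A further 60 genes of the same pathways gave a similar count. Their list, outside the 52, was also made with earlier results of these data known. Of these, 41 were tested and 5 had an unadjusted p below 0.05 (12.2%, compared with 16.2% of all genes tested), with 3 higher and 2 lower in KO and none at an adjusted p of 0.05. *Dgat2*, the other enzyme that completes triglyceride, had the smallest p of them. It was at 41.4 and 64.2 FPKM in control and at 26.0 and 22.5 FPKM in KO, and the groups did not overlap. Its mean was 2.18-fold higher in control than in KO (52.8 ± 16.1 against 24.2 ± 2.54 FPKM, SD, n = 2), with a log2 fold change of -1.06 ± 0.21 (SE; limma adjusted p = 0.0821). Without control 1 the log2 fold change was -1.37 and the adjusted p was 0.0208, and without any other library the adjusted p was at least 0.143. The adipocyte markers *Adipoq* and *Cfd* were listed at 0 in all 4 libraries, and the summed level of 5 adipocyte markers was 1.37 and 1.74 FPKM in control and 0.68 and 0.12 FPKM in KO.

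*Hacd3*, a dehydratase of the elongation cycle that *Elovl5* and *Elovl1* begin, was at 373 and 372 FPKM in control and 283 and 276 FPKM in KO (-0.41 ± 0.10, SE; limma adjusted p = 0.125). *Ggps1*, which makes the geranylgeranyl chain from the product of *Fdps*, was at 53.7 and 47.4 FPKM in control and 63.6 and 66.4 FPKM in KO (0.36 ± 0.13, SE; limma adjusted p = 0.232). *Ggps1* overlaps *Arid4b*, at 88.8 to 99.5 FPKM, on the opposite strand. All 5 tested genes of the companion list of sterol synthesis had a positive log2 fold change, with a median of 0.14, compared with 3772 of the 7639 genes tested. For 4 of the 5 the KO values were higher without overlap, compared with 1851 of the 7639. In the other companion lists, log2 fold changes were positive for 3 and negative for 6 genes of sterol uptake and SREBP processing. The counts were 2 and 4 for storage, 5 and 2 for fatty acid synthesis, and 9 and 5 for oxidation. Outside the naming rule, and chosen after its values were seen, *Mbtps2*, a protease that releases SREBP, was at 1.61 and 2.09 FPKM in control and 4.37 and 5.59 FPKM in KO. It was below the filter of 5 FPKM, and with a filter of 1 FPKM its log2 fold change was 1.07 ± 0.24 (SE; limma adjusted p = 0.130). *Mbtps1*, the other protease of SREBP processing in the list, was at 26.7 and 24.8 FPKM in control and 22.2 and 18.6 FPKM in KO. Its values were lower in KO without overlap (-0.33 ± 0.15, SE; limma adjusted p = 0.349).

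Promoters of the 52 genes were read from RefSeq windows of GRCm38.p6 that run from 250 bases before to 50 bases after the transcription start, which were found for 42 of the 52. A sterol regulatory element with the letters TCACNCCAC, on either strand, was present in 2 of the 42 (4.76%), *Hmgcs1* and *Acsl1*, and in 1.28% of 6080 tested genes with a window. The CCAAT box bound by NF-Y, a partner of SREBP at sterol promoters, was present in 27 of the 42 (64.3%), compared with 42.9% of those tested genes and 41.1% of all 27025 genes in the windows. The E-box TCACGTGA and the LXR element of 2 AGGTCA copies with 4 bases between them were in none of the 42, and in 2.68% and 0% of the tested genes. Since no tested gene had the LXR letters, their absence cannot set the 42 apart. The 10 genes without a window, *Fdps*, *Fdft1*, *Sqle*, *Stard4*, *Abcg1*, *Scd1*, *Scd2*, *Fads1*, *Dgat1* and *Fabp5*, were not read. Matches are descriptions of letters, not sites of binding. The 150 bases before the start are shown for the genes with a sterol regulatory element and for the called genes that had a window, in lower case with matches in capitals, 5′ to 3′ along the gene.
Hmgcs1, chr13:119690201-119690350, + strand: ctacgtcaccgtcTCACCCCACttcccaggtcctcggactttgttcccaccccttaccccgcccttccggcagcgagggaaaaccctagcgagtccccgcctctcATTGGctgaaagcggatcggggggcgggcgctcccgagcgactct
Acsl1, second start, chr8:46490816-46490965, + strand: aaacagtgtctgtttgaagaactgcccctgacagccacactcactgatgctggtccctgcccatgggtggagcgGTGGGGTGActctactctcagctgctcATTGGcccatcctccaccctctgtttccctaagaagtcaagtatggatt
Nsdhl, chrX:72918371-72918520, + strand: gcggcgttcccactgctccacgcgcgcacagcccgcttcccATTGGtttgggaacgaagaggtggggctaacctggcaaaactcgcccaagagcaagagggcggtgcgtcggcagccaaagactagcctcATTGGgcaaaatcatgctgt
Soat1, chr1:156474329-156474478, - strand: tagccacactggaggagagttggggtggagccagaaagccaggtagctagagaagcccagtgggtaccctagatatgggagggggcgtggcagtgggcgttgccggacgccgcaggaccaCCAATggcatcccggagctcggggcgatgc
Elovl5, chr9:77917215-77917364, + strand: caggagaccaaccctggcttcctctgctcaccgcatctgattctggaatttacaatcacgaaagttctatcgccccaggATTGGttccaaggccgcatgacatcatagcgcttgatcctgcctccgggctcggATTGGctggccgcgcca

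In *Hmgcs1* the sterol regulatory element TCACCCCAC began 137 bases before the start, with a reversed CCAAT box (ATTGG) 45 bases before the same start. In *Acsl1* the element lay at the second of its start sites, on the other strand as GTGGGGTGA, 76 bases before the start with a reversed CCAAT box 49 bases before that start. *Hmgcs1* and *Acsl1* did not differ alike between groups, with log2 fold changes of -0.03 and -0.43 that both missed the test. *Nsdhl*, *Soat1* and *Elovl5* had CCAAT boxes only, 2 before the start in *Nsdhl* and *Elovl5* and 1 in *Soat1* in the stretch shown. The CCAAT box was in the windows of *Soat1* and *Nsdhl*, whose values were higher in KO, and of *Elovl5*, whose values were lower.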

How the data were processed

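Poly(A) RNA of sorted LI Treg cells was sequenced by the authors in paired reads, which per the methods and labels were mapped to GRCm38 with STAR 2.5 and quantified with RSEM 1.2. The deposited table holds FPKM of 53379 genes, 1 column per library. The near-identical column distributions are not explained in the sources used here. Depth is not kept in these values, so no counting error was computed and the precision is the spread between 2 pools. Labels do not say whether pools of 1 group were processed separately, so p-values may in part measure technical spread.

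Gene types and positions came from GENCODE M21 (GRCm38), later than the authors' M16. The filter kept protein-coding genes whose mean in control or in KO was above 5 FPKM. limma 3.58.1 (R 4.3.3) was fitted to log2(FPKM + 1), two-sided, with a trend in the empirical Bayes step and Benjamini-Hochberg adjustment. A permutation test of 2 against 2 libraries cannot pass 0.05. The study's count test was not applied, since the values are FPKM.

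The members and lists were chosen with earlier results of these data known. Values per library are given for genes with an unadjusted p below 0.05 and the 2 most abundant genes of each branch, and for companion genes with the 3 smallest p. *Dhcr7*, *Acsl1*, *Lss*, *Hmgcs1* and other genes given by library were added to complete each branch. Alternatives were pseudocounts of 0.1 and 5, a filter of 1 FPKM or none, all gene types, rescaled, median-centred or quantile-normalized values, no trend, a replicate block, a crossed pairing chosen after seeing the data, and each library left out. Tables were handled in Python 3.11.15 with pandas 2.3.3.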

Additional observations from a re-analysis of the deposited data

How the results depend on the processing

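*Nsdhl* kept its direction and an unadjusted p below 0.05 under each alternative, and no member reached an adjusted p of 0.05 under any of the planned ones. The rescaled, median-centred and quantile-normalized values could change little, since the 4 columns already had nearly the same distribution. Replicate numbers did not pair the libraries (correlation of deviations -0.305). With the replicate number as a block, the same 4 members stayed at an unadjusted p below 0.05 (9.52% of the 42, compared with 10.4% of all genes tested) and companions higher in KO went from 3 to 0. With a crossed pairing, chosen after seeing the data, 5 members were higher and 4 lower (21.4%, compared with 26.1% of all genes tested), 2 reached an adjusted p of 0.05, and 7 companions were higher, with 2 at an adjusted p of 0.05, while the calls at that adjusted p over all genes went from 45 to 465. Members called lower were 2 with no filter, with *Nr1h3* added to *Elovl5*, and 2 with no trend, with *Dhcr7* added. With no filter *Fdps* was also added to the members called higher. That made 6 of 52 members, compared with 1946 of 17694 genes, so the share of members was not below that of all genes. With no trend 5 of 42 members were called, compared with 1171 of 7639 genes. Each library was also left out in turn. A fit without a library leaves 1 sample in a group, assumed to vary like the other group. In those fits the branch medians ranged from 0.0733 to 0.25 for mevalonate, from -0.13 to 0.0814 for squalene to cholesterol, from -0.21 to 0.0021 for SREBP control, from 0.0393 to 0.22 for sterol transport, from -0.16 to 0.15 for fatty acid synthesis, from -0.26 to 0.15 for activation, from -0.0798 to 0.14 for storage and from 0.0661 to 0.16 for oxidation. In them 22 of the 42 genes had log2 fold changes of both signs, among them *Lss* (-1.09 to 0.36), *Fasn* (-0.37 to 0.52), *Msmo1* (-0.13 to 0.089), *Insig1* (-0.35 to 0.0154), *Srebf2* (-0.69 to 0.0266), *Nr1h2* (-0.33 to 0.15), *Abcg1* (-0.21 to 0.15), *Acsl4* (-0.26 to 0.16) and *Acsl5* (-0.0401 to 0.17). *Hmgcs1*, *Mvk*, *Pmvk* and *Mvd* of the mevalonate branch were also among the genes with both signs. The cause of these shifts was not tested. The depth is unknown and the precision comes from 2 pools a group, which left *Lss*, near 5 FPKM, with a 95% interval from -1.51 to 0.78.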
